A study of Mus musculus with 7 samples.

Results

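The immediate early genes are a set of 44 genes, picked by name, among the 21899 genes measured in pancreatic islets of F2 male mice. They cover the AP-1 subunits (Fos and Jun families with Atf3 and Maff), the EGR zinc fingers, the NR4A orphan receptors, Krüppel-like and other transcription factors, proteins that switch signalling off again, and effectors of stress and growth. All 44 were found by Ensembl identifier through their GENCODE M21 symbol, Cyr61 and Ctgf under their current symbols Ccn1 and Ccn2. The names were put together with log2 ratios from the same libraries in view, so the ratios below describe these genes and test nothing about them.

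Immediate early genes are transcribed within minutes of a stimulus, because the kinases and transcription factors that switch them on are already present in the resting cell. Calcium and cyclic AMP act through CREB at the cAMP response element (CRE), and the ERK pathway acts through serum response factor at the CArG box. In the β-cell, membrane depolarisation by glucose and incretin signalling both engage this programme, and so do the warming, enzyme digestion and handling that any islet isolation involves. The transcripts are short-lived, and several of the encoded proteins (Dusp1, Zfp36, Rgs2, Socs3) shut the response down.

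Islet RNA-seq was compared between control-F2 and AE-F2 males to ask what ancestral androgen exposure leaves in islet gene expression. F0 dams of the wild-type C57BL/6J strain received dihydrotestosterone subcutaneously late in gestation (AE, labelled hyperandrogenism) or the benzyl benzoate and corn oil vehicle alone (control), their F1 sons received nothing further and were mated to wild-type females, and the F2 sons of both lines were themselves untreated. The labels give neither the age of the F2 mice at islet isolation nor the number of animals behind a library. According to the methods, islets were freed with collagenase, separated on a density gradient, hand-picked and cultured in RPMI medium. The labels name 3 control and 4 AE libraries. The values are from replicate 1 of control-F2 and replicate 4 of AE-F2, and the other 5 libraries were not analysed here. With 1 library per group there was no replicate check, no test was possible and the spread between libraries of a group could not be computed.

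The control-F2 library held 16285888 counts and the AE-F2 library 21278513, and β-cell markers were abundant in both, with Ins1 and Ins2 at 17.7% and 17.5% of all counts. The summed level of 10 β-cell markers was 203170 and 203535 CPM (counts scaled to library size), that of 3 δ-cell markers 2987 and 2977 CPM, and that of 6 α-cell markers 17535 and 23709 CPM, most of it Gcg (log2 ratio 0.46), while the interval of 3 of the 6 included equality. The 7 B cell markers summed to 11.5 CPM in control-F2 and 39.4 CPM in AE-F2 islets, and the 7 T cell markers to 1.10 and 8.09 CPM, with Cr2, Cd3d, Cd3e and Cd3g at 0 in the control-F2 library. Cd79a, at 10.9 and 18.4 CPM, carried most of the B cell sum in the control-F2 library, and the median log2 ratio of the 7 B cell markers was 4.86. The 9 mesenchymal markers had a median log2 ratio of 0.98, and 4 were at least 2-fold higher (all genes 3.16%). The libraries therefore differed in lymphocyte, mesenchymal and Gcg transcripts as well as in ancestral treatment.

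Before the values, the DNA upstream of the members with the largest decreases is shown, because the CRE and its half-site, the letters through which CREB is recruited, were found in a larger share of the members' promoters than of all promoters. The sequences come from RefSeq (GRCm38.p6), which held a promoter for 33 of the 44 members, and cover up to 250 bases before the first listed transcription start, read 5′ to 3′ on the gene's strand, with stretches that GENCODE M21 annotates as exon cut off. Shown are the members at least 2-fold lower in the AE-F2 library with a mean count of at least 100 for which at least 100 bases could be printed. The windows of Npas4 and Csrnp1 lay in annotated exons, and Arc and Sik1 had no entry. Capitals mark each CRE (TGACGTCA) or CRE half-site (TGACG or CGTCA, both strands).
Atf3 (chr1:191183341-191183583, minus strand): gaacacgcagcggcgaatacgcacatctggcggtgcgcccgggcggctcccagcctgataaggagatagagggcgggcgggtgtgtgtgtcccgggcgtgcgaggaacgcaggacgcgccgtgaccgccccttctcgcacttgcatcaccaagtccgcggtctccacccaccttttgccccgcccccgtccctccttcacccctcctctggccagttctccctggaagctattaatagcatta
Fosb (chr7:19310052-19310295, minus strand): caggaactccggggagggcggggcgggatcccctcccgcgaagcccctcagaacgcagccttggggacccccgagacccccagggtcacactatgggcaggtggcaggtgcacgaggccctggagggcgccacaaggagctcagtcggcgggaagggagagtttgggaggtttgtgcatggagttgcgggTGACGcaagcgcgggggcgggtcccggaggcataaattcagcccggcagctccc
Dusp1 (chr17:26508520-26508722, minus strand): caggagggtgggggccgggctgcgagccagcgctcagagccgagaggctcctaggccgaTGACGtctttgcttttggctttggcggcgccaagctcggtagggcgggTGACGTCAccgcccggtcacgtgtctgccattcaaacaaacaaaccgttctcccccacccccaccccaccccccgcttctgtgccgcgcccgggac
Nr4a1 (chr15:101266596-101266845, plus strand): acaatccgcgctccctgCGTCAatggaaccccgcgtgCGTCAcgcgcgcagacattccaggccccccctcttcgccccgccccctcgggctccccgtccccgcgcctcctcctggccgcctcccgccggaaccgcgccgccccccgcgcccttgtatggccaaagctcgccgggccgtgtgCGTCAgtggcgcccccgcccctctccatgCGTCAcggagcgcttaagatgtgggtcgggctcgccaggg
Klf6 (chr13:5861239-5861481, plus strand): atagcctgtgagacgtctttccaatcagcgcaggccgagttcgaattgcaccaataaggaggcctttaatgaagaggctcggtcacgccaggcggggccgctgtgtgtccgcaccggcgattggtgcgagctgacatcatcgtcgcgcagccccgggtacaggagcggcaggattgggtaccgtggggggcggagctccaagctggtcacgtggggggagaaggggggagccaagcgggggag
Klf4 (chr4:55532476-55532725, minus strand): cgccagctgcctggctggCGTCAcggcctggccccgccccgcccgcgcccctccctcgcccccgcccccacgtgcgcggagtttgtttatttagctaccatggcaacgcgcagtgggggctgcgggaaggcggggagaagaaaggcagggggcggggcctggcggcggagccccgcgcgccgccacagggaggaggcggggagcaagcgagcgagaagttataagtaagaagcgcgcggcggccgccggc

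In the Dusp1 promoter a full CRE began 143 bases before the start, and a further half-site began 191 bases before it. The Nr4a1 promoter held 4 half-sites, the nearest beginning 40 bases before the start and the farthest 233 bases before it. Fosb had a single half-site 60 bases and Klf4 a single half-site 232 bases before the start, Klf6 had none, and the half-site of Atf3 fell outside the bases printed.

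Of the 33 member promoters, 19 (57.6%) held at least 1 CRE half-site, against 17.9% of all 27025 promoters and 26.6% of the 10637 promoters of genes with a mean count of at least 10. The full CRE, which contains the half-site, was found in 3 (9.09%), those of Btg2, Dusp1 and Ppp1r15a, against 1.62% and 2.77%. The CArG box was present in Dusp5 and Zfp36 (6.06%, against 1.40% and 1.15%). None of the 33 held the AP-1 letters TGACTCA or TGAGTCA, which 4.43% of all promoters and 2.86% of those of the genes with that mean count did, and the heat shock element TTCNNGAA was present in Cyr61 alone (3.03%, against 7.10% and 5.70%). These matches describe letters in a 250-base window and show no binding.

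For the comparison of expression, counts were scaled for library size with TMM factors, a log2 ratio (AE-F2/control-F2) was computed after 0.5 counts had been added to each value, and a 95% interval for counting error alone was attached. PCR copies are not independent molecules, so these intervals are too narrow and leave out the spread between animals. Of the 44 members, 41 had a mean count of at least 10. Their median log2 ratio was -0.65, with quartiles of -0.99 and -0.34 and a range from -3.32 to 0.47, and the median of all 13627 genes kept by the same minimum was 0.00. The ratio was below 0 for 37 of the 41, against 50% of all genes, and 10 were at least 2-fold lower, against 0.653% of all genes. No member was at least 2-fold higher, against 3.16%. The counting interval lay wholly below equality for 33 members and wholly above it for Ctgf and Cebpd, against 13.4% of all genes in either direction, and it included equality for Ier3, Fosl2, Egr2, Cyr61, Egr3 and Dusp2. Since the members were chosen with this contrast known, nothing beyond these counts is read from them.

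**Figure D1:**
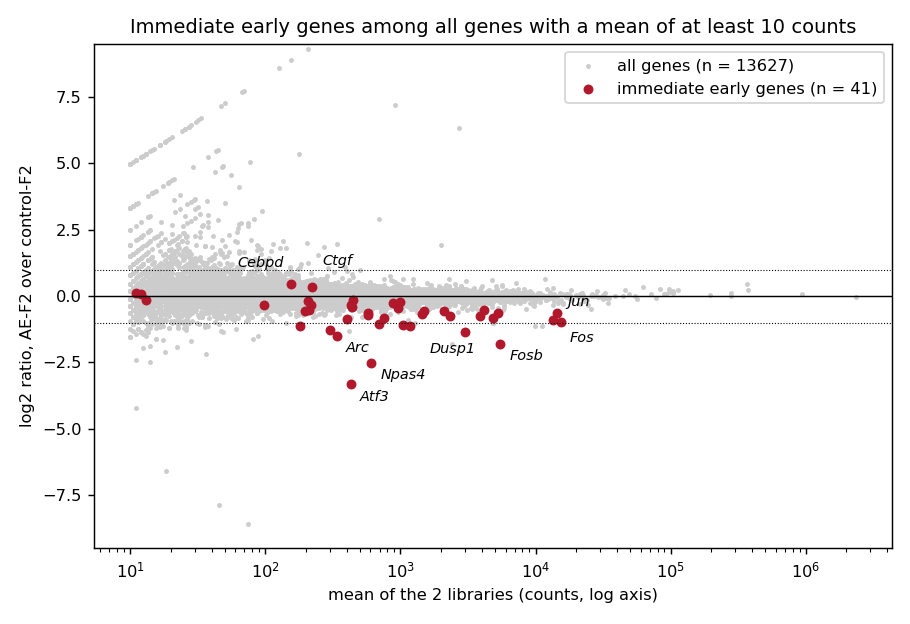
AE-F2/control-F2 log2 ratio (y axis) against the mean counts of both libraries (x axis, log scale) for 13627 genes (grey) and 41 immediate early genes (red), with dotted lines at 2-fold. Of the members, 37 lie below 0, and they run from Atf3 at -3.32 to Cebpd at 0.47, and most other abundant genes are close to 0.

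The lower values were not limited to thinly counted genes. Among the 10540 genes with a mean count of at least 100, 37 were members, of which 35 were below 0 (all genes 53.3%) and 10 at least 2-fold lower (all genes 0.171%), with none at least 2-fold higher (all genes 0.285%). At a threshold of 1.5-fold, 22 of the 41 members were lower, against 2.19% of all genes. Ordered from the lowest ratio up, the first 10 of the 10540 genes included 7 members, the first 50 included 19 and the first 100 included 26. All 15 members with a mean count of at least 1000 were lower in the AE-F2 library, by log2 ratios of -0.52 to -1.80, where 1953 of all 3471 genes at that level were below 0.

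Summed over the 44 members, the control-F2 library held 104624 counts, 0.642% of its total (Wilson 95% interval 0.639% to 0.646%), and the AE-F2 library 75167 counts, 0.353% (0.351% to 0.356%). After TMM scaling the sum was 1.81-fold lower in the AE-F2 library, a log2 ratio of -0.86 (-0.87 to -0.85). Fos, Jun and Egr1 supplied 47.9% of the members' counts in control-F2 and 48.3% in AE-F2 islets. Without them, the remaining 41 members were 1.83-fold lower, so the decrease did not rest on the most abundant transcripts. In bulk RNA, fewer cells of a type that expresses a gene and less of its RNA per cell cannot be told apart.

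**Figure D2:**
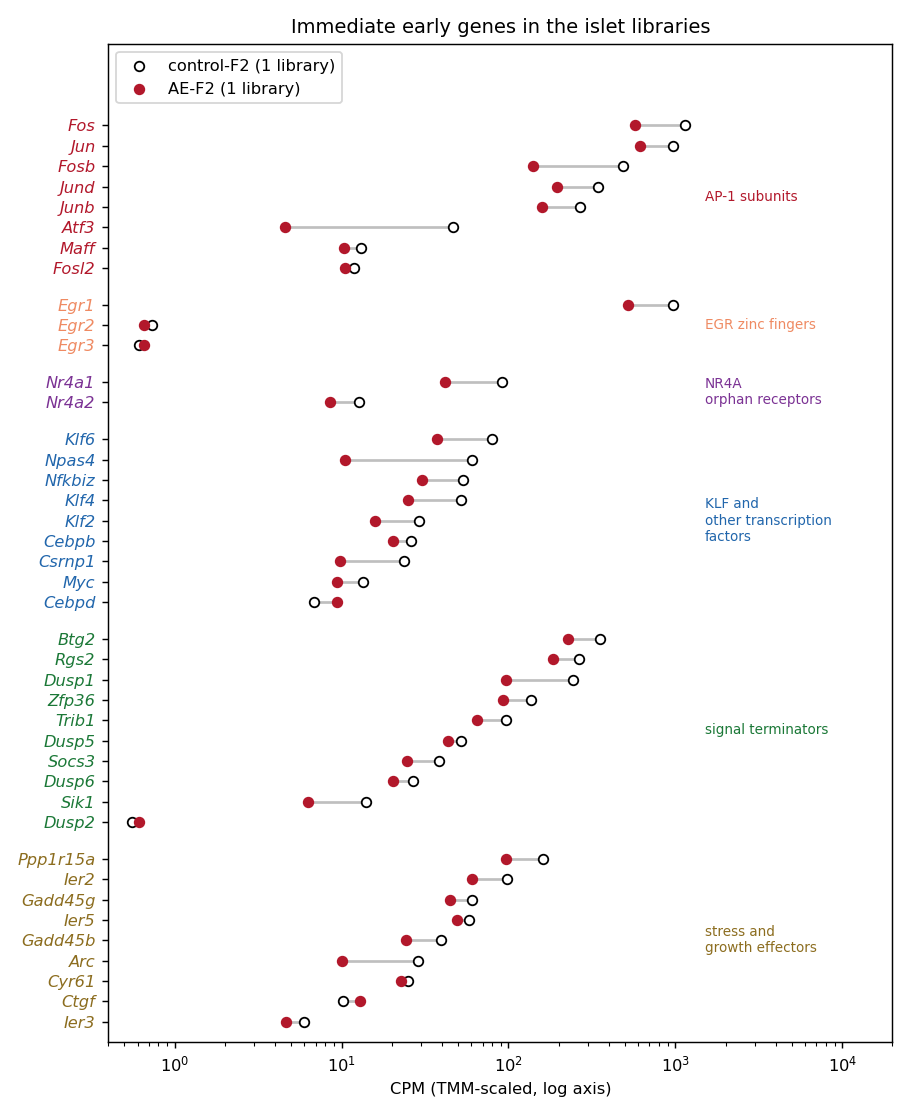
CPM of each of the 41 members (log axis) in control-F2 (open circles) and AE-F2 islets (red circles), grouped by role. The red circle is to the left of the open one for 37 members, and the gap is widest for Atf3, from 46.4 to 4.61 CPM.

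The AP-1 subunits are basic leucine zipper proteins that pair up to bind DNA, and 8 of the 9 had a mean count of at least 10. All 8 were lower, with a median log2 ratio of -0.79, and their summed level was 0.521 of that in the control-F2 library. Fos, the archetypal member, went from 18615 counts (1141 CPM) in the control-F2 library to 12218 (575 CPM) in the AE-F2 library, a log2 ratio of -0.99 (-1.02 to -0.96). Fosb, its close relative, went from 7956 to 2985 counts (488 and 140 CPM), a log2 ratio of -1.80 (-1.86 to -1.74). Fosb therefore stood at 42.7% of the Fos counts in control-F2 islets and at 24.4% in AE-F2 islets. The difference between the Fosb and Fos ratios was -0.81 on the log2 scale (-0.88 to -0.74), a value that no scaling of the libraries can alter.

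The Jun proteins, partners of Fos, were lower by less. Jun had 15766 and 13068 counts in the control-F2 and AE-F2 libraries (967 and 615 CPM, log2 ratio -0.65), Jund 5612 and 4128 (344 and 194 CPM, -0.82) and Junb 4385 and 3367 (269 and 158 CPM, -0.76). The ratios of Jund and Junb moved to -0.28 and -0.44 when trends with GC content, length and level were taken out, and their transcripts hold 67.1% and 62.6% G and C, against a median of 49.7% for protein-coding genes. Jund also shares 52.6% of its exon bases with the antisense gene Gm11175, and the library kit is not described as keeping strand, so reads of overlapping genes cannot be told apart. The same holds for smaller stretches of Ctgf (23.2%), Dusp5 (22.1%) and Cebpb (20.7%), which overlap other genes on the opposite strand. The Fos ratio was lower than the Jun ratio, with a difference of -0.34 (-0.38 to -0.29).

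Atf3, a stress-induced repressor, had the lowest ratio of all members and of all genes with a mean count of at least 100. It had 757 counts in control-F2 and 98 in AE-F2 islets, a log2 ratio of -3.32 (-3.65 to -3.03). In the order of all kept genes by CPM it went from percentile 70.6 to percentile 20.3. Maff, a small Maf protein without an activation domain, had 212 and 220 counts (-0.33, -0.61 to -0.05), and Fosl2 193 and 222 (-0.18, -0.46 to 0.11), the latter with an interval that included equality. Fosl1 had 0 counts and 1 count, below what can be compared.

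Among the EGR zinc fingers a single gene carried the family. Egr1, a factor induced by ERK signalling and by glucose, had 15743 counts in control-F2 and 11034 in AE-F2 islets (965 and 519 CPM), a log2 ratio of -0.89 (-0.93 to -0.86). Its ratio was close to that of Fos, with a difference of 0.09 (0.05 to 0.14). Egr2 had 12 and 14 counts and Egr3 10 and 14, so that intervals of -1.38 to 1.08 and -1.17 to 1.43 left their direction unresolved at this depth. Egr4 fell under the minimum with 16 and 3 counts (log2 ratio -2.62, -5.22 to -0.99).

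The NR4A receptors are nuclear receptors that act without a known natural ligand and are governed by how much is made. Nr4a1 had 1483 and 891 counts in the control-F2 and AE-F2 libraries (90.9 and 41.9 CPM), a log2 ratio of -1.12 (-1.24 to -0.996). Nr4a2 had 208 and 182 counts, a log2 ratio of -0.57 (-0.87 to -0.28). The ratio of Nr4a1 was lower than that of Nr4a2 by more than counting error, with a difference of -0.54 (-0.85 to -0.23). Nr4a3 was scarcely detected, with 2 and 11 counts and an interval of -0.12 to 5.29.

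The 9 Krüppel-like and other transcription factors had the lowest median of the 4 groups with at least 8 kept members, -0.86. Npas4, a factor induced by calcium entry on depolarisation in neurons and β-cells, had 991 counts in control-F2 and 224 in AE-F2 islets (60.8 and 10.5 CPM), a log2 ratio of -2.52 (-2.74 to -2.32). Csrnp1, an AXIN1-induced nuclear protein, had 388 and 209 counts (-1.27). Both were therefore at least 2-fold lower, and Npas4 was second to Atf3 among the 41.

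The Krüppel-like factors lay close together. Klf6 had 1297 and 792 counts (79.5 and 37.3 CPM, log2 ratio -1.09), Klf4 844 and 533 (51.8 and 25.1 CPM, -1.04) and Klf2 472 and 339 (28.9 and 16.0 CPM, -0.86). Klf4 was the member just past 2-fold, and Fos, at -0.99, the member just short of it. The differences of Klf6 and Klf4 from Klf2 were -0.23 (-0.47 to 0.00) and -0.19 (-0.44 to 0.07), so the order within this family is not resolved.

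Nfkbiz, an atypical IκB protein of the nucleus, had 872 and 641 counts (-0.83), and the growth regulator Myc 220 and 201 (-0.51, -0.80 to -0.23). The C/EBP factors were the exception in this group. Cebpb had 424 and 435 counts, a log2 ratio of -0.34 (-0.54 to -0.15) that turned to 0.16 when the GC, length and level trends were removed. Cebpd had 111 counts in control-F2 and 201 in AE-F2 islets, a log2 ratio of 0.47 (0.13 to 0.82), the highest of the 41. Its deposited values were not whole numbers, and it shares 15% of its exon bases with Spidr on the opposite strand. Cebpd is an acute-phase factor that many cell types express, and the part of the higher lymphocyte, mesenchymal and Gcg transcripts in its ratio was not tested.

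The proteins that end a signal were lower too, with a median of -0.57 over 10 genes and a summed level of 0.619 of the control-F2 level. Dusp1, a nuclear phosphatase that inactivates stress-activated MAP kinases, stood apart with 3995 counts in control-F2 and 2056 in AE-F2 islets (245 and 96.8 CPM), a log2 ratio of -1.34 (-1.42 to -1.26). Dusp6, the ERK phosphatase of the cytoplasm, had 438 and 434 counts (-0.40), and Dusp5, the ERK phosphatase of the nucleus, 852 and 922 (-0.27). Against Dusp5 the ratio of Dusp1 was lower by 2.10-fold, a difference of -1.07 (-1.23 to -0.92). Dusp2, with 9 and 13 counts, was too thinly counted to place.

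Sik1, a kinase that restrains CREB coactivators after cAMP, had 228 and 134 counts in the control-F2 and AE-F2 libraries, a log2 ratio of -1.15 (-1.47 to -0.83). Btg2, an antiproliferative partner of the CCR4-NOT deadenylase, had 5805 and 4826 counts (356 and 227 CPM, -0.65). Zfp36, which binds AU-rich elements and brings transcripts to decay, had 2231 and 1973 (137 and 92.8 CPM, -0.56), and the interval of the difference between the Zfp36 and Btg2 ratios included 0 (0.09, -0.01 to 0.19). Rgs2, which speeds up the switching off of G proteins, had 4335 and 3951 counts (266 and 186 CPM, -0.52), Trib1, a pseudokinase adaptor for protein degradation, 1585 and 1386 (-0.58), and Socs3, the feedback inhibitor of cytokine receptors, 628 and 522 (-0.65). In all of these the interval lay below equality.

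Among the 9 effectors of stress and growth, Arc stood out. Arc, a capsid-forming cytoskeletal protein best known from active synapses, had 466 counts in control-F2 and 214 in AE-F2 islets (28.6 and 10.1 CPM), a log2 ratio of -1.50 (-1.74 to -1.27). Arc and Npas4, both markers of neuronal activity, did not move by the same amount, as the Arc ratio was higher by 1.02 (0.71 to 1.34). Ppp1r15a, the GADD34 subunit that reverses eIF2α phosphorylation, had 2628 and 2055 counts (161 and 96.7 CPM, -0.74).

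The other effectors were nearer to equality. Ier2 had 1593 and 1287 counts (-0.69), the stress sensors Gadd45b and Gadd45g 643 and 515 (-0.70) and 981 and 946 (-0.43), and Ier5 945 and 1043 (-0.24). Ier3 had 97 and 99 counts (-0.35, -0.77 to 0.07). The matricellular proteins, targets of YAP and serum response factor, were not lower beyond counting error. Cyr61 had 410 and 486 counts (-0.14, -0.33 to 0.06), and Ctgf 166 counts in control-F2 and 274 in AE-F2 islets, a log2 ratio of 0.34 (0.06 to 0.63). Mesenchymal markers summed to 252 CPM in control-F2 and 309 CPM in AE-F2 islets, with 8 of 9 above 0. The collagen genes Col3a1 and Col1a2 were at 0.98 and 0.96, while the pericyte markers Rgs5 and Pdgfrb were at 0.08 and 0.05 and the smooth muscle actin gene Acta2 was at -0.31 (-0.60 to -0.02). Their part in the Ctgf and Cyr61 values was not tested.

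**Figure D3:**
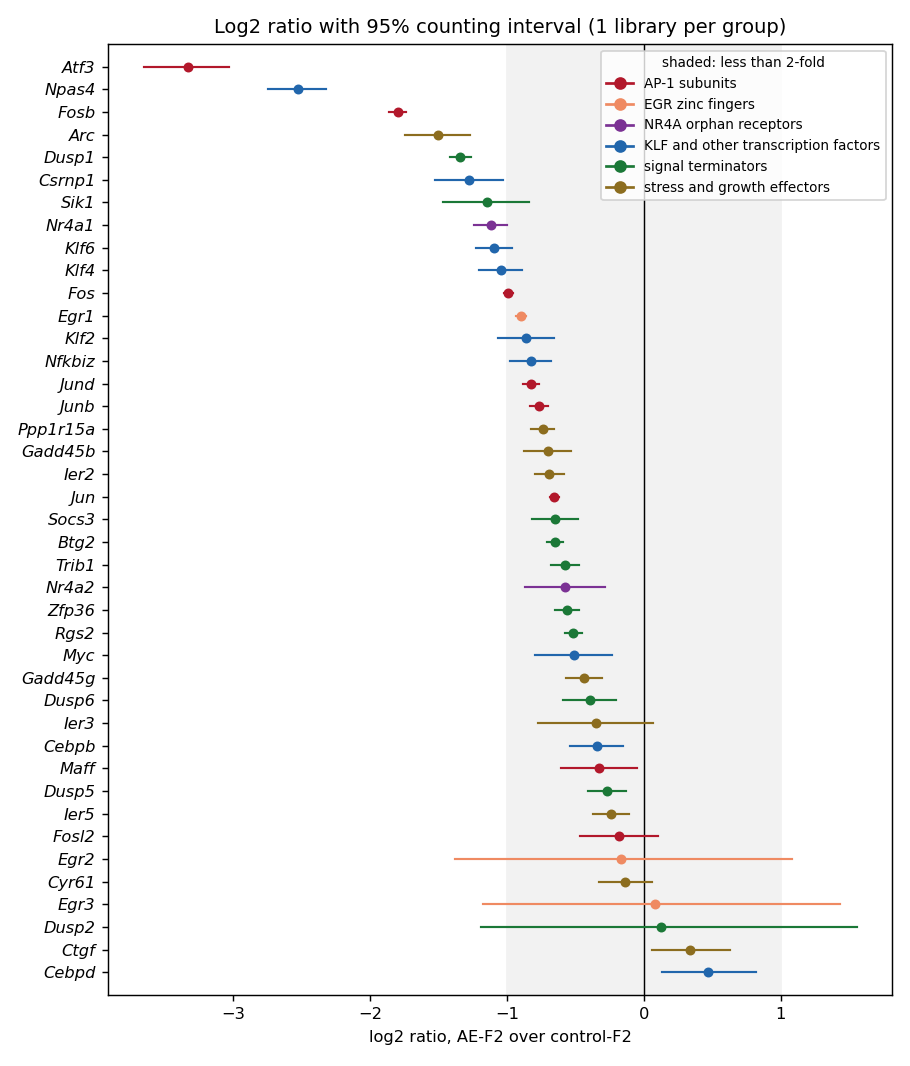
AE-F2/control-F2 log2 ratio for the 41 members, lowest at the top, with bars for the 95% counting interval and colours for role, each from 1 library per group. The 10 members left of the shaded band are at least 2-fold lower, and the bars of 6 members cross 0.

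Per exon length the most abundant members were the same in both libraries, while Atf3 and Npas4 moved down the order in the AE-F2 library. In RPKM, which scales counts for exon length and library size, Fos was highest in both libraries (485 and 244 RPKM), Jun second (303 and 193 RPKM), and Egr1 (215 and 116 RPKM) and Jund (206 and 116 RPKM) came next. The Spearman correlation of RPKM between the 2 libraries was 0.93 over the 41 members, a description of levels that share gene length. The members with the lowest ratios spanned a range of levels, with Atf3 at 21.6 and 2.14 RPKM, Npas4 at 14.7 and 2.55 RPKM, Fosb at 78.1 and 22.5 RPKM, Arc at 9.35 and 3.29 RPKM, and Dusp1 at 74.0 and 29.2 RPKM.

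The members differed from other genes in their median gene structure, which played no part in naming them, and varied among themselves from 1 to 14 exons. In GENCODE M21 the median member had 3 exons and spanned 4.26 kb, against 8 exons and 25.2 kb for 13564 protein-coding genes with a mean count of at least 10. Genes under 5 kb made up 23 of the 41 members (56.1%) and 10.3% of the protein-coding genes, and 7 members (17.1%, against 5.46%) had a single exon. Their 3′ untranslated regions held a median of 2.25 ATTTA pentamers per kb, the core of AU-rich decay elements, against 1.23. The longer element TTATTTATT was present in 8 members (19.5%, against 8.34%).

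Short span did not go with the lower ratio. Protein-coding genes under 5 kb had a median log2 ratio of 0.00, and members under 5 kb had a median of -0.56 against -0.97 for the 18 longer members, which included 9 of the 10 members at least 2-fold lower. Members with TTATTTATT and those without had the same median, -0.65. The 54 other protein-coding genes under 5 kb that held it had a median of -0.11, with 34 below 0 (all genes 50%). Of their intervals 15 lay below equality and 7 above it (all genes 13.4% each). Across the 41 members the Spearman correlation of the log2 ratio was -0.33 with span, 0.05 with ATTTA density and -0.55 with CPM in the control-F2 library, a level that the ratio itself contains. Members whose promoter held a CRE half-site had a median of -0.86 (17 genes) and those without one -0.41 (14 genes). For the CArG box the medians were -0.41 with it (2 genes) and -0.65 without (29 genes). These counts use all 250 bases, annotated exons included, and the half-sites of Atf3 and Npas4 lie in stretches not printed above.

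**Figure D4:**
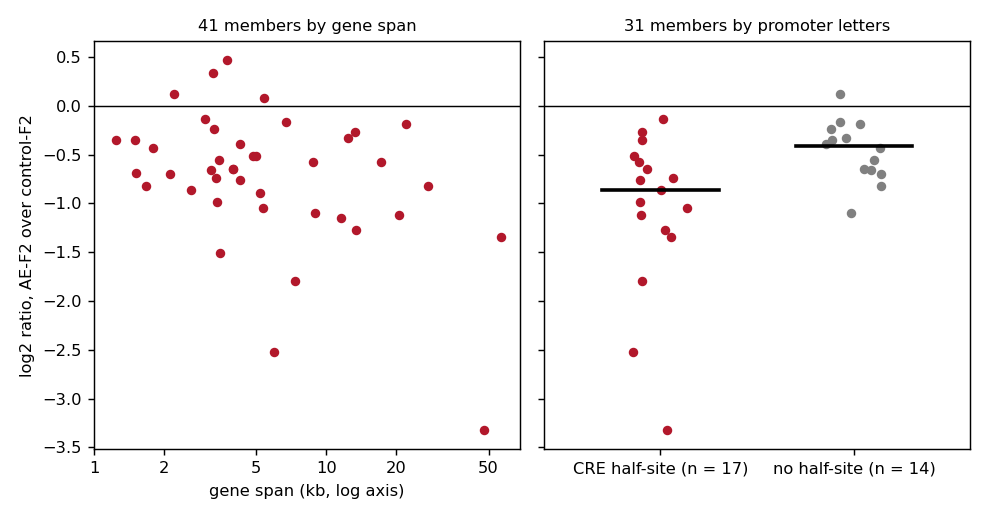
AE-F2/control-F2 log2 ratio against gene span in kb (left, log axis, 41 members) and by presence of a CRE half-site in the promoter (right, 31 members with a promoter entry, bars at the medians). The medians are -0.86 with a half-site and -0.41 without. Members with a half-site run from -3.32 (Atf3) to -0.14 (Cyr61), and those without from -1.09 (Klf6) to 0.13 (Dusp2).

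The transcripts of the signalling machinery that acts on these genes had medians near 0, and the activity of the encoded proteins was not measured. Of 33 upstream kinases and calcium signalling genes, 31 were kept, with a median log2 ratio of 0.00 and none past 2-fold. The interval was below equality for 4 and above it for 3 (all genes 13.4% each), and the sum was 4754 and 4666 CPM. Prkacb, a catalytic subunit of protein kinase A, had 13820 and 16011 counts (-0.17). Of 27 pre-formed transcription factors and cofactors, none was past 2-fold and the median was -0.03, with 6 intervals below equality, that of the CREB coactivator Crebbp (-0.30) among them, and 3 above (all genes 13.4% each). The lowest of them was Srf, serum response factor, with 729 and 694 counts, a log2 ratio of -0.45 (-0.60 to -0.30). The 4 most abundant were closer to 0, Mef2d at -0.12, Ep300 at -0.11, Stat3 at 0.09 and Atf2 at 0.12. Among 18 mRNA decay factors for AU-rich transcripts the median was 0.04, with Tob1 lowest at -0.48 and Zfp36l1 highest at 0.59, 4 intervals below equality and 5 above (all genes 13.4% each), and none past 2-fold.

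Other genes that respond fast to stimulation were mixed. Of 56 such genes 55 were kept, with a median of -0.27, and 41 were below 0 and 14 above it (all genes 50% below). The interval lay below equality for 25 and above it for 6 (all genes 13.4% each). The sum, 12277 and 12255 CPM, was carried by 1 gene, the granule protein Scg2, at 10266 and 10660 CPM (0.05). Nptx2, with 13 and 8 counts, was at least 2-fold lower (all genes 0.653%), with an interval of -2.56 to 0.30. Another 2 genes were at least 2-fold higher (all genes 3.16%). The prostaglandin synthase Ptgs2 was at 1.75 (0.74 to 3.03) from 9 and 41 counts, and the interval of the other included equality. Txnip, the glucose-induced thioredoxin inhibitor, had 8839 and 8255 counts (-0.48), Rhob, a small GTPase, 3524 and 3268 (-0.49), and the Krüppel-like factor Klf9 1800 and 2500 (0.09, 0.00 to 0.18). Of 21 inflammatory fast-response genes 16 were kept and their median was -0.15, with 9 below 0 and 7 above it, 3 at least 2-fold lower (all genes 0.653%) and 2 at least 2-fold higher (all genes 3.16%). The values included the IκB gene Nfkbia at -0.46, the chemokine Ccl4 at -1.63 from 22 and 9 counts, and the adhesion molecule Vcam1 at 2.76 from 13 and 119 counts.

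Most chaperones and stress-response targets were lower in the AE-F2 library. All 15 heat shock chaperones were kept, with a median of -0.37, 13 below 0 and 2 above it (Cryab at 0.55 and Hspe1 at 0.03). Of their intervals 11 lay below equality (all genes 13.4%) and 4 included it, and their sum was 5900 CPM in control-F2 and 4072 CPM in AE-F2 islets. Dnajb1, a co-chaperone of HSP70, had 3541 and 1310 counts (-1.82, -1.91 to -1.72), and Hspa1a and Hspa1b, the inducible HSP70 genes, -1.14 and -1.11. The last 2 are near-identical copies between which reads may have been divided. Hspa8, the constitutive HSP70 gene, was at -0.35. Of 12 targets of the integrated stress response, all were below 0 and 11 had an interval below equality, with a median of -0.45. They ran from Trib3 at -0.82 to Xbp1 at -0.01, with the abundant Hspa5 at -0.09. What part handling of the islets had in these values and in those of the members was not tested, and with 1 library per group it cannot be told apart from ancestral treatment.

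**Figure D5:**
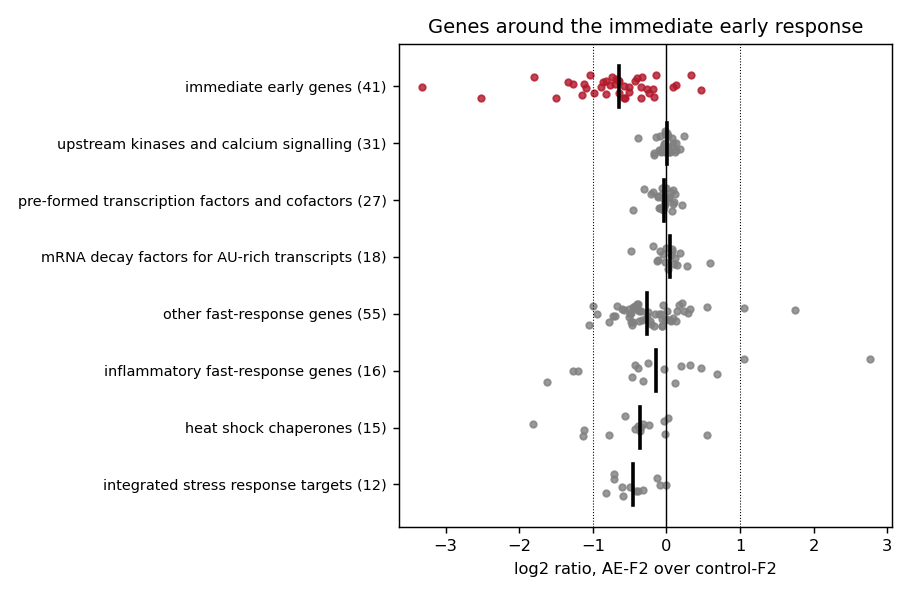
AE-F2/control-F2 log2 ratio for the genes of each list (points, number of genes in parentheses) with the median as a black bar and dotted lines at 2-fold. The median is -0.65 for the immediate early genes, between -0.15 and -0.45 for the fast-response, chaperone and stress-response lists, and within 0.04 of 0 for kinases, pre-formed factors and decay factors.

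Summed markers of β-cells, δ-cells and endothelial cells were at nearly the same level in both libraries. β-cell markers were at 1.00 of the control-F2 level, δ-cell markers at 0.997 and 8 endothelial markers at 1.00. Of the 10 β-cell markers, 8 had an interval below equality and 2 above it, the lowest being Slc2a2 at -0.28. The share below equality was 13.4% of all genes, and 865 of the 3471 with a mean count of at least 1000, as these 10 had. Among the endothelial markers 1 interval lay below equality and 2 above it, with Vwf highest at 0.997 from 32 and 84 counts. Acinar markers were at 0.907, with 8 of the 9 kept lower (all genes 50%), among them Cela2a at -0.52 and Cpa1 at -0.52, and Amy2a5 higher at 0.63. Duct markers were at 1.14 (a sum led by Krt7, at 247 and 292 CPM) and macrophage markers at 1.19 (raised by Lyz2, at 6.87 and 26.9 CPM, with 4 of the 8 below 0). The sums of α-cell markers were at 1.35 (led by Gcg), of B cell markers at 3.42 and of T cell markers at 7.33 of the control-F2 level. Cd79a, the most abundant B cell marker in both libraries, had the lowest log2 ratio of the 7, at 0.75. The part of these cell types in the members' ratios was not tested.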

How the data were processed

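Islet mRNA of F2 males was enriched with oligo(dT) beads and sequenced on an Illumina instrument, and per the methods the authors aligned filtered reads to the mouse genome with HISAT2. The submitters' processing notes also name Bowtie2, RSEM and DESeq2, without a role. The authors deposited estimated counts per gene (21899 genes, 1 file per library), not scaled for depth or length. The counting tool, gene annotation and genome build are not given in the sources used here, so the only positions printed are those of the RefSeq promoter windows, and GENCODE M21 served for symbols, exon lengths, GC content and structure. Exon number is that of the transcript with the longest exonic sequence, and span covers all transcripts of a gene.

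Here estimated counts were made whole by rounding, and edgeR 4.0.16 (R 4.3.3) gave the TMM factors that scaled the libraries (16285888 and 21278513 counts). Ratios used a pseudocount of 0.5 and were kept for genes averaging at least 10 counts. Clopper-Pearson 95% intervals on the fraction of a gene's counts that fell in the AE-F2 library (scipy 1.17.1) became intervals on the ratio, and differences between the ratios of 2 genes carry a Wald interval on the log odds. No p-value was computed, as each group had 1 library. The code was tested on simulated data.

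The members, the other gene lists and the pairs compared were chosen with earlier results of these data known. All members are accounted for. Of each other list, up to 4 of the most abundant genes and the largest ratio in each direction could be named, and Col3a1 is among the 4 most abundant mesenchymal markers. Crebbp and Hspe1 were named after their values were seen. Some genes that the rule allows are not printed. RefSeq promoters (GRCm38.p6) were searched on both strands in the 250 bases before the first listed start. Alternatives were other scalings (median-of-ratios factors from DESeq2 1.42.0, totals, upper quartiles, totals without the 10 most abundant genes), thinning of the AE-F2 counts, other minima, a pseudocount of 5, a 1.5-fold threshold, removal of GC, length and level trends, and leaving out Atf3, Npas4, Fosb and Arc.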

Additional observations from a re-analysis of the deposited data

How the results depend on the processing

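Under 13 alternatives the median log2 ratio of the members ran from -0.69 to -0.56 and stayed below that of all genes. The number of members at least 2-fold lower, 10, became 22 at a threshold of 1.5-fold (2.19% of all genes) and 6 without Atf3, Npas4, Fosb and Arc, both by construction, and 11 with a minimum mean of 1 count, as Egr4 entered. The number at least 2-fold higher, 0, became 1 with a minimum mean of 1 count and 2 with no minimum, as Nr4a3 and then Fosl1, with 1 count in all, entered. Of 444 values of single members, 435 stayed within the counting interval. The 8 that moved and kept their direction did so when trends with GC content, length and level were removed, which also turned Cebpb from -0.34 to 0.16. The cause was not tested. Signs were kept under every alternative for 38 of the 41 members, the exceptions being Cebpb, Egr3 and Dusp2. Other scalings shifted all ratios by at most 0.017 on the log2 scale.

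No paired analysis was possible because the 2 libraries carry different replicate numbers. Leaving out a replicate was not possible with 1 library per group. At this depth Egr2, Egr3, Dusp2, Nr4a3 and Fosl1, with at most 14 counts in a library, could not be placed, and intervals cover counting error only.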
